A study of Homo sapiens with 51 samples.

Results

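The ephrin, semaphorin and plexin guidance genes are the cell-surface and secreted proteins through which neighbouring cells repel or attract each other. They were taken from the count table by gene symbol: Eph receptors of the A and B classes, A and B ephrins, semaphorins of classes 3 to 7, and plexins of classes A to D. The rule found 51 protein-coding genes among 58051 gene rows. They comprised 9 EphA receptors, 5 EphB receptors, 5 A ephrins, 3 B ephrins, 20 semaphorins and 9 plexins. All 51 passed the filter on low counts and were tested, and together they held between 0.18% and 0.291% of the counts of a library.

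The cells were H1, a line of human embryonic stem cells (hESCs). BMP4 cultures received BMP4 at 50 ng/mL and no Activin. Activin+BMP4 cultures received Activin A at 100 ng/mL and BMP4 at 10 ng/mL. RNA was sequenced after 1, 6, 12, 24, 36, 48, 72 and 96 h of either treatment. Untreated cells in mTeSR1 medium, labelled 0 h, served as the baseline, and there were no untreated libraries of later times. With 3 libraries in each of 17 groups there were 51 libraries, of 22.8 to 30.4 M counts each (M for mega), with a median of 24.9 M. The treated cells of both conditions were kept in TeSR E5 medium with insulin, FGF2 and LY29004. The effects of that medium, of the growth factors and of time in culture therefore cannot be told apart in comparisons with untreated cells. The dose of BMP4 also differed between the conditions, so the absence of Activin and the higher BMP4 dose cannot be told apart either. All cells came from a single line, and nothing in the labels says whether libraries of a group came from separate cultures. The p-values therefore measure the spread between these libraries, which may be technical.

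Levels are given in CPM, the usual read count normalised to a fixed total per library, and levels of different genes are compared only per kilobase (kb) of exon. A gene was called when its adjusted p from edgeR's quasi-likelihood test was under 0.05 over the 19603 genes tested and the change was at least 2-fold. Log2 fold changes are followed by their standard error (SE), and means by their standard deviation (SD) with n = 3 libraries. Markers of pluripotency summed to between 3180 and 3280 CPM in the untreated libraries. At 96 h the definitive endoderm markers summed to 112 to 133 CPM in BMP4 libraries and to 2910 to 3860 CPM in Activin+BMP4 libraries. Mesoderm markers summed to 773 to 894 CPM in the BMP4 libraries and 41.4 to 55.7 CPM in the Activin+BMP4 libraries, and amnion markers to 1450 to 1640 CPM and 39.2 to 57.9 CPM in the same order of conditions. RNA was taken from whole cultures, so fewer cells of a type and less RNA per cell cannot be told apart, and the part of these cell types in the results below was not tested. A pair of libraries lay at least 3 times farther from the others of their group than those lay from each other: replicate 3 of Activin+BMP4 at 96 h, and BMP4 12 h replicate 1. Results at those times were also computed without them. Activin+BMP4 48 h replicate 2 lay at the limit of this rule, and without it 13 genes were still called between the conditions at 48 h.

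Eph receptors are receptor tyrosine kinases, and ephrins are their ligands. A ephrins are held in the membrane by a lipid anchor, whereas B ephrins cross it and can signal in their own cell. Contact between Eph- and ephrin-bearing cells sorts cells across boundaries, for example between somites and in vessel walls. Semaphorins signal through plexins. Those of class 3 are secreted and mostly bind neuropilins, which pair with A plexins, while SEMA3E binds PLXND1 directly. Semaphorins of classes 4 to 6 span the membrane, and SEMA7A carries a lipid anchor and binds PLXNC1. In embryos these families guide axons, vessels and migrating mesoderm and neural crest cells.

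More guidance genes were called at late than at early times, and from 6 h on their called share was larger than that of all genes. BMP4 set against Activin+BMP4 called 0 guidance genes at 1 h with edgeR and with DESeq2, where 2 had an unadjusted p under 0.05 in edgeR and 0.0051% of all genes were called, all lower. At 6 h SEMA3C alone was called (1.96% of guidance genes against 0.505% of all genes, 0.189% higher and 0.316% lower), and at 12 h SEMA3A and SEMA3C (3.92% against 1.42% of all genes, 0.658% higher and 0.765% lower), each lower with BMP4. The SEMA3C call at 6 h rested on 0.242 to 0.367 CPM in BMP4 libraries and 0.368 to 0.885 CPM in Activin+BMP4 libraries, and it was lost when the model held those groups alone. At 24 h, 6 genes were higher and 2 lower with BMP4, which is 15.7% of the guidance genes against 4.01% of all genes (2.41% higher and 1.6% lower). The counts were 9 higher and 2 lower at 36 h (21.6% against 5.58% of all genes, 3.02% higher and 2.56% lower) and 8 higher and 5 lower at 48 h (25.5% against 9.25% of all genes, 4.86% higher and 4.39% lower). They were 5 higher and 6 lower at 72 h (21.6% against 9.63% of all genes, 5.07% higher and 4.56% lower) and 8 higher and 9 lower at 96 h (33.3% against 15.6% of all genes, 7.62% higher and 7.95% lower). The median size of the log2 difference at 96 h was 0.67 over the guidance genes and 0.33 over all genes tested. In total 28 guidance genes were called between the conditions at some time, a count for which the share of all genes was not computed. Of these, 3 were called in both directions at different times, SEMA3C, SEMA3D and SEMA5B. Without Activin+BMP4 96 h replicate 3 the count at 96 h was 16, EPHA8 being lost. Without BMP4 12 h replicate 1 the count at 12 h stayed at 2.

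**Figure D1:**
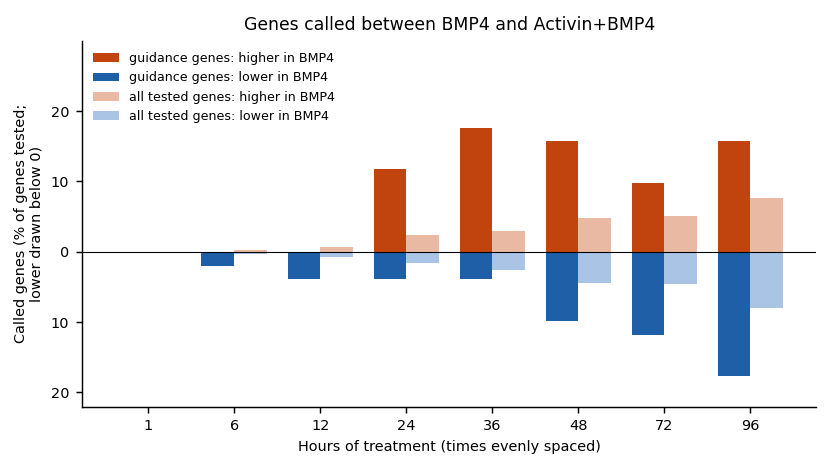
Share of genes called (%) between BMP4 and Activin+BMP4 at each of the 8 times, for the 51 guidance genes (dark) and for all 19603 genes tested (light), with genes higher with BMP4 drawn above 0 and lower ones below it. From 24 h on the whole bar of the guidance genes is longer than that of all genes, and at 96 h it spans 33.3% against 15.6%.

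**Figure D2:**
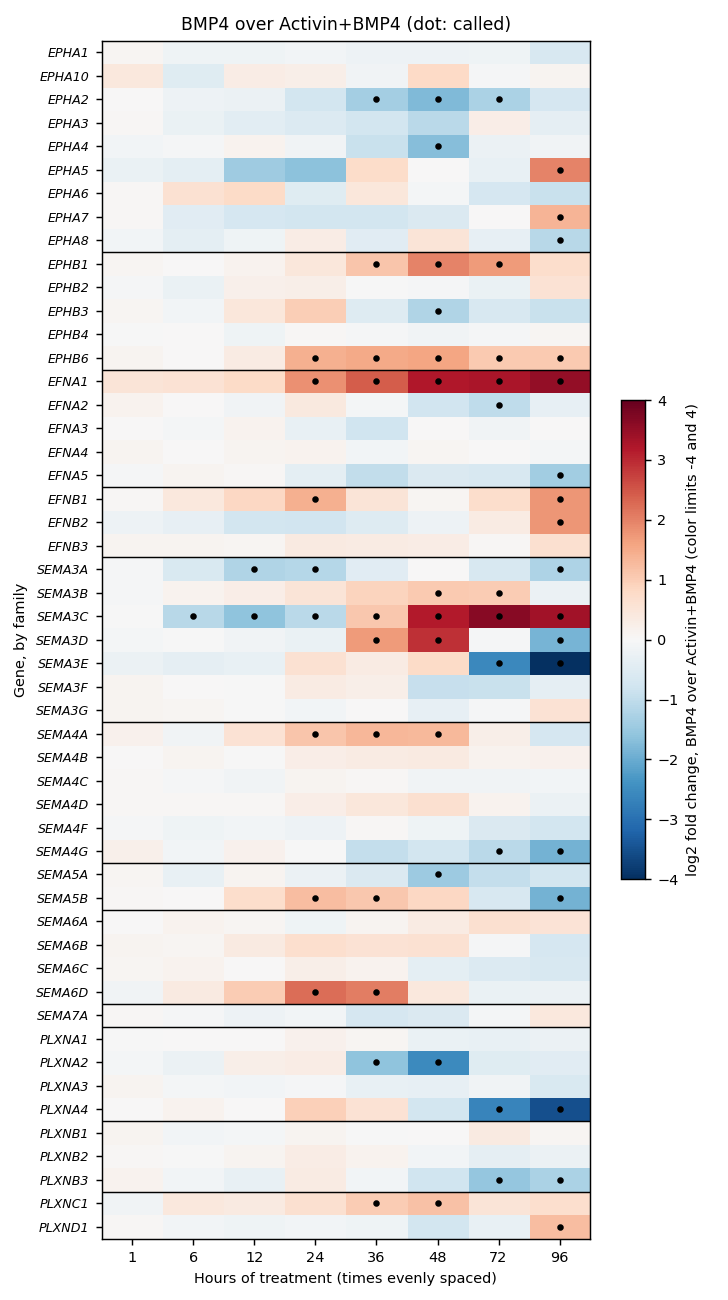
Log2 fold change of BMP4 over Activin+BMP4 for each guidance gene (rows, by family) at each time (columns), with a dot where the gene was called. Dots are absent at 1 h and most frequent at 96 h, where 8 genes are called higher and 9 lower with BMP4.

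Promoters of 4 genes on which the results turn are printed here as RefSeq gives them on GRCh38.p14. EFNB2 and SEMA3C ended higher with BMP4, SEMA3E ended higher with Activin+BMP4, and PLXNA2 rose in both conditions. Each is the 250 bases before the RefSeq start nearest to the 5′ end of the gene, written 5′ to 3′ along the gene, and all 4 genes lie on the minus strand. EFNB2 is at chr13:106535663-106535912, SEMA3C at chr7:80922390-80922639, SEMA3E at chr7:83649140-83649389 and PLXNA2 at chr1:208244385-208244634. Capitals mark matches, on either strand, to any of 5 motifs. These were AGATAA for factors of the GATA family and AGGTGTGA for T-box factors. The letters TGTTTAC stood for forkhead factors, GCCNNNGGC for AP-2 and GGCGCC for SMADs of the BMP pathway.
EFNB2: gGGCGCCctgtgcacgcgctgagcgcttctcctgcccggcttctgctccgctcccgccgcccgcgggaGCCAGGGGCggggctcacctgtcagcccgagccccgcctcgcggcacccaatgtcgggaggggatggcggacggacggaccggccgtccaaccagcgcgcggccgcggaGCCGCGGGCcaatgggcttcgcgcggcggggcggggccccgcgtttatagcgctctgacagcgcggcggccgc
SEMA3C: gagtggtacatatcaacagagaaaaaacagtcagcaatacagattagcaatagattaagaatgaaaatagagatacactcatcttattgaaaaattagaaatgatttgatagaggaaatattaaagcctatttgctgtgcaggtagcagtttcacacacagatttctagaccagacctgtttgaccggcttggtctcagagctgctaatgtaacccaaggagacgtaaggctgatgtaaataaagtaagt
SEMA3E: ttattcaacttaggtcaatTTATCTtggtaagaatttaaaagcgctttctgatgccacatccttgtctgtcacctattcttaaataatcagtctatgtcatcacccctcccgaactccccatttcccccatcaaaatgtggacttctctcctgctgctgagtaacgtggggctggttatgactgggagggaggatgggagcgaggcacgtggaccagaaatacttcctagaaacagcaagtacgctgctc
PLXNA2: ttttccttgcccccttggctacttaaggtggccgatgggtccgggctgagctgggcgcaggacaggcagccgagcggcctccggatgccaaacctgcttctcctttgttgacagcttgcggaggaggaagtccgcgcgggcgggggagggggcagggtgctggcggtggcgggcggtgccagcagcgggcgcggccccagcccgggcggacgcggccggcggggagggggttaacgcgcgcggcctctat

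The EFNB2 window held 3 matches, the SEMA3E window 1, and those of SEMA3C and PLXNA2 held 0. The share of G and C bases was 78.4% for EFNB2, 36.4% for SEMA3C, 46.4% for SEMA3E and 72.4% for PLXNA2. Over the 73 RefSeq promoters of 46 guidance genes, the AP-2 letters were present in 38.4%, against 19.8% of all 35116 promoters searched. The BMP SMAD letters were in 23.3% against 16.4%, the GATA letters in 8.22% against 9.17%, the forkhead letters in 1.37% against 2.98% and the T-box letters in 0 against 0.786%. The fixed letters of the AP-2 and BMP SMAD motifs are all G or C. The share of G and C was not computed over the 73 promoters or over all promoters, and its part in these shares was not tested. Of the genes called at 96 h that had a promoter, the AP-2 letters were in 4 of 8 that were higher with BMP4 and in 4 of 8 that were lower. The BMP SMAD letters were likewise in 3 of 8 and 3 of 8. A match is only a run of letters, and no binding was measured.

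Different EphA receptors were called between the conditions at 48 h and at 96 h. Of the 9, at 48 h 0 were higher and 2 lower with BMP4 (EPHA2 and EPHA4), and at 96 h 2 were higher (EPHA5 and EPHA7) and 1 lower (EPHA8). The shares of all genes called were 9.25% at 48 h and 15.6% at 96 h, and with 9 receptors these counts describe single genes. EPHA5 and EPHA8 were under 5 CPM in every group, and each of their calls at 96 h was lost without 1 library. EPHA2, a receptor for EFNA1 that is abundant in epithelia, had 39.5, 48.5 and 47 CPM in BMP4 libraries at 48 h, against 156, 154 and 152 CPM in Activin+BMP4 libraries. It was thus 3.42-fold lower with BMP4 (log2 -1.78 ± 0.10, adjusted p = 2.02e-18), with no overlap. The untreated libraries lay between 43.9 and 46 CPM, so EPHA2 at 48 h was near its untreated level with BMP4, after a low of 24.1 CPM at 12 h, and rose 3.41-fold above it with Activin+BMP4 (adjusted p = 1.04e-18). At 96 h EPHA2 had 74.9, 62.4 and 47.6 CPM with BMP4 and 112, 104 and 80.6 CPM with Activin+BMP4, a difference under 2-fold that was not called.

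EPHA4, which binds ephrins of both classes, was 3.25-fold lower with BMP4 at 48 h (log2 -1.70 ± 0.16, adjusted p = 1.27e-11). Its libraries had 19, 20.2 and 18.6 CPM with BMP4 and 60.2, 63.8 and 64.1 CPM with Activin+BMP4. By 72 h the levels were 77.6 ± 1.89 CPM (BMP4) and 91 ± 12 CPM (Activin+BMP4). At 96 h the libraries of the conditions overlapped, at 67.6, 74.4 and 86.1 CPM with BMP4 and 100, 96.8 and 53.7 CPM with Activin+BMP4, the lowest being the replicate that stood apart. Compared with the 12 to 12.9 CPM of untreated libraries, EPHA4 at 96 h rose 6.19-fold with BMP4 (log2 2.63 ± 0.17, adjusted p = 2.6e-17) and 6.8-fold with Activin+BMP4 (log2 2.76 ± 0.17, adjusted p = 3.83e-18). EPHA4 was thus raised in both conditions at 96 h, and at 48 h it was lower with BMP4.

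EPHA7 moved the other way. From 6 h to 48 h it was slightly lower with BMP4, for example at 24 h with 10.9, 11.6 and 11.3 CPM in BMP4 libraries, against 18.4, 18.7 and 18.8 CPM with Activin+BMP4, which did not reach 2-fold. At 96 h it had 33, 36.2 and 36 CPM with BMP4 and 14.5, 13.9 and 12.7 CPM with Activin+BMP4. That is 2.56-fold higher (log2 1.35 ± 0.08, adjusted p = 1.14e-18), without overlap. EPHA1, the founding member of the family, had 51.9, 47.6 and 47.5 CPM at 96 h of BMP4 and 75.6, 73.2 and 79.4 CPM at 96 h of Activin+BMP4, against 118, 108 and 106 CPM in untreated cells. Its fall with BMP4 against untreated was 2.26-fold (log2 -1.18 ± 0.04, adjusted p = 1.3e-25), while that with Activin+BMP4 stayed under 2-fold. The other EphA receptors, EPHA3, EPHA5, EPHA6, EPHA8 and EPHA10, were under 5 CPM in every group, and the EPHA5 and EPHA8 calls rest on 0.0335 to 0.649 CPM and 0.961 to 3.38 CPM. The EPHA8 call was lost without Activin+BMP4 96 h replicate 3, and the EPHA5 call without Activin+BMP4 96 h replicate 2.

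Among the 5 EphB receptors, EPHB6 and EPHB1 were higher with BMP4, EPHB3 was lower with BMP4 at 48 h, and EPHB4 kept a steady level. EPHB6, which lacks kinase activity, had 37.5, 39.7 and 39.4 CPM with BMP4 at 24 h and 13.9, 14.3 and 15.4 CPM with Activin+BMP4. It was 2.68-fold higher with BMP4 at 24 h (log2 1.42 ± 0.08, adjusted p = 6.09e-18), 3-fold at 48 h (log2 1.58 ± 0.08, adjusted p = 7.6e-20) and 2.07-fold at 96 h (log2 1.05 ± 0.08, adjusted p = 2.99e-15). Untreated libraries had 15.1 to 16.9 CPM, so EPHB6 rose with BMP4 and remained near the untreated level with Activin+BMP4. EPHB1 peaked at 48 h with BMP4, at 24.7, 24.2 and 26.3 CPM, against 6.65, 6.32 and 6.01 CPM with Activin+BMP4. The 3.97-fold difference at 48 h (log2 1.99 ± 0.08, adjusted p = 1.34e-23) shrank to 1.62-fold at 96 h, when BMP4 libraries averaged 8.68 ± 0.532 CPM and Activin+BMP4 libraries 5.37 ± 1.03 CPM.

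EPHB3 was very low in untreated cells and rose in both conditions. Its means were 0.705 CPM in untreated cells, then 3.28, 15.1 and 25.6 CPM at 24, 48 and 96 h of BMP4, and 1.66, 35 and 47.3 CPM at the same times of Activin+BMP4. At 48 h it had 13.4, 16.4 and 15.6 CPM with BMP4 and 36.3, 33.8 and 35 CPM with Activin+BMP4, a 2.32-fold lower level with BMP4 (log2 -1.21 ± 0.09, adjusted p = 6.09e-15). By 96 h it had risen 35.9-fold over untreated with BMP4 (log2 5.17 ± 0.14, adjusted p = 3.07e-30) and 66.6-fold with Activin+BMP4 (log2 6.06 ± 0.14, adjusted p = 2.95e-33). EPHB2, a receptor of the B ephrins best known from axon guidance and the gut crypt, had 70, 71.4 and 62 CPM at 96 h of BMP4 and 47.2, 47.2 and 41.8 CPM at 96 h of Activin+BMP4, against 22.1, 22.5 and 21 CPM untreated. Its rises of 3.1-fold (adjusted p = 2.53e-21) and 2.08-fold (adjusted p = 5.12e-15) were both called, but the difference between the conditions did not reach 2-fold. EPHB4, the receptor of EFNB2 on veins, was called in 0 of 24 comparisons, and its group means ran from 154 to 189 CPM.

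Among the A ephrins, EFNA1 and EFNA5 differed in opposite directions. EFNA1, a ligand of EPHA2, had 32.4, 32.9 and 34.9 CPM in BMP4 libraries at 48 h, against 3.74, 3.58 and 3.68 CPM in Activin+BMP4 libraries. The excess with BMP4 was called at every time from 24 h on, at 3.57-fold at 24 h (log2 1.84 ± 0.13, adjusted p = 3.35e-15), 9.11-fold at 48 h (log2 3.19 ± 0.12, adjusted p = 1.14e-24) and 11.6-fold at 96 h (log2 3.53 ± 0.14, adjusted p = 7.15e-25). With 1.68 to 1.81 CPM in untreated libraries, it had 16.2, 16.8 and 18.2 CPM at 96 h of BMP4 and 1.26, 1.27 and 1.88 CPM at 96 h of Activin+BMP4. EFNA1 and its receptor EPHA2 were thus on opposite sides at 48 h, the ligand higher and the receptor lower with BMP4.

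EFNA5, which binds several EphA receptors, ran against EFNA1. It had 30, 27.6 and 31.8 CPM with BMP4 at 96 h and 70.1, 77.9 and 84 CPM with Activin+BMP4, 2.59-fold lower with BMP4 (log2 -1.38 ± 0.07, adjusted p = 2.77e-20) without overlap. Untreated libraries had 22, 23.8 and 21 CPM, and the rise over them at 96 h was 3.47-fold with Activin+BMP4 (adjusted p = 5.22e-24) and 1.34-fold with BMP4, which is under the 2-fold limit. EFNA2 was called lower with BMP4 at 72 h alone, at 2.43 ± 0.0434 CPM against 4.98 ± 0.789 CPM with Activin+BMP4, a call lost without Activin+BMP4 72 h replicate 2. EFNA3 and EFNA4 share 44.7% and 15% of their exon bases with a readthrough gene on the same strand that had 174 counts in all, so their levels are uncertain. EFNA3 rose with Activin+BMP4 at 36 h (12.4 ± 1.77 CPM, against 5.16 ± 0.401 CPM untreated), and EFNA4 was never called, at 7.6 to 11.7 CPM.

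At the end of the time course 2 of 3 B ephrins, EFNB2 and EFNB1, were called higher with BMP4, as were 7.62% of all genes at 96 h. EFNB2, the arterial and somite-boundary ligand whose promoter is printed above, had an early and a late phase. At 6 h it had 76.9, 74.4 and 72.7 CPM with BMP4 and 97.3, 94.7 and 92.1 CPM with Activin+BMP4, against 40.5, 39.3 and 39.3 CPM untreated. That early level was 1.88-fold over untreated with BMP4, under the limit of a call, and 2.39-fold with Activin+BMP4 (log2 1.25 ± 0.07, adjusted p = 3.61e-18). From 6 h to 48 h EFNB2 was the lower with BMP4, by under 2-fold each time. At 96 h the order had turned, with 117, 112 and 91.9 CPM in BMP4 libraries and 34, 34.3 and 27 CPM in Activin+BMP4 libraries, 3.36-fold higher with BMP4 (log2 1.75 ± 0.07, adjusted p = 4.83e-24). EFNB2 fell 2.2-fold between 48 h and 96 h of Activin+BMP4 (log2 -1.13 ± 0.07, adjusted p = 2.18e-17).

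EFNB1, the X-linked ligand that patterns the skull and palate, was called higher with BMP4 at 24 h and again at 96 h. At 24 h it had 11.6, 12.3 and 11.7 CPM with BMP4 and 3.66, 4.63 and 4.97 CPM with Activin+BMP4, 2.69-fold higher (log2 1.43 ± 0.12, adjusted p = 1.67e-12). At 48 h the libraries overlapped, with 14.2 ± 0.881 CPM and 13.3 ± 0.503 CPM in the same order. By 96 h EFNB1 had 44.7, 43.4 and 46.6 CPM with BMP4 and 11.2, 11.5 and 16.5 CPM with Activin+BMP4, 3.43-fold higher (log2 1.78 ± 0.10, adjusted p = 1.34e-19). EFNB3, the third B ephrin, was never called and ranged from 13.5 to 29.3 CPM. At 96 h the 7 endothelial markers summed to 779 to 1010 CPM with BMP4 and to 225 to 231 CPM with Activin+BMP4. Only 3 of them exceeded 1 CPM in each condition. KDR made up 851 CPM and 188 CPM of these sums. PECAM1, at 0.257 and 0.335 CPM, and CDH5, at 0.605 and 0.314 CPM, were near 0 in both conditions. The sum did not follow the B ephrins over the whole course. It was 304 to 323 CPM in untreated libraries and 533 to 554 CPM at 48 h of Activin+BMP4. The part of endothelial cells in this result was not tested.

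**Figure D3:**
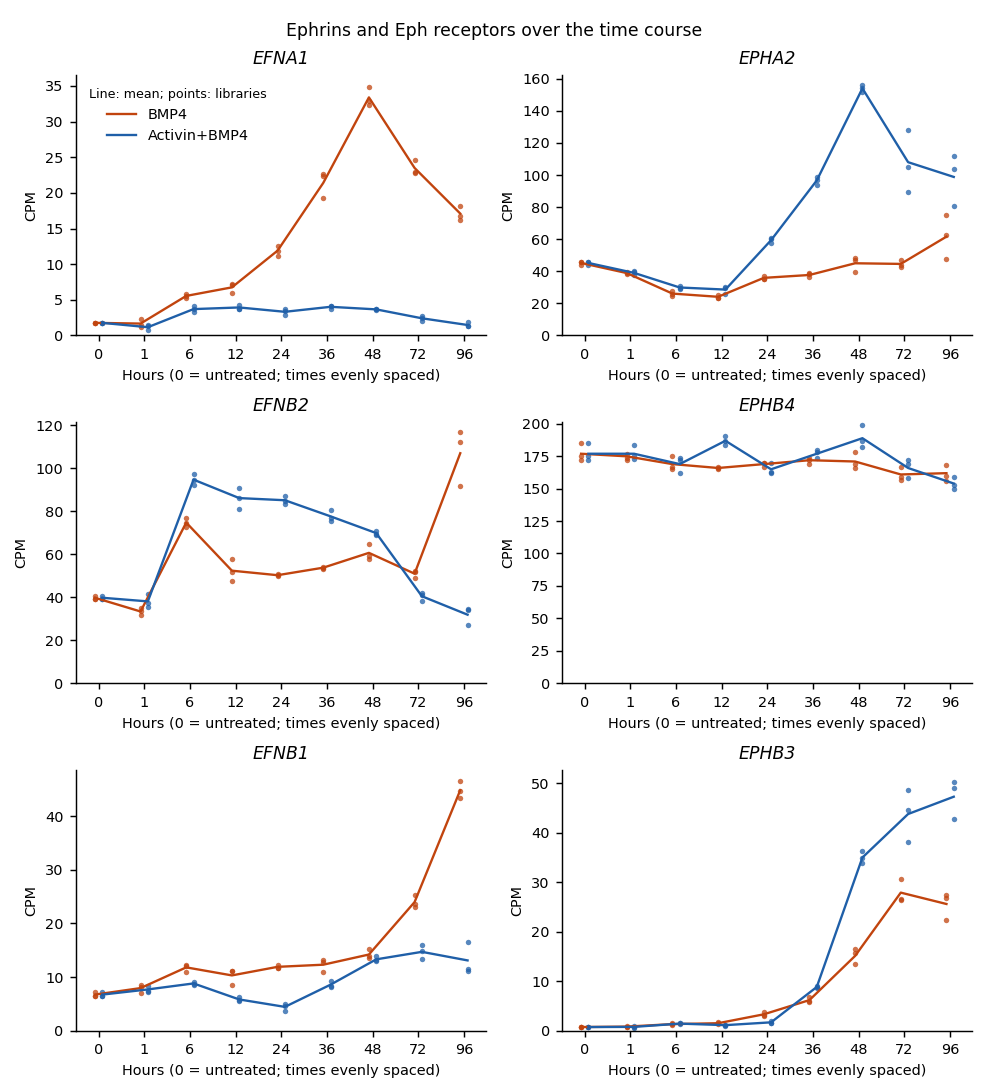
CPM of EFNA1, EPHA2, EFNB2, EPHB4, EFNB1 and EPHB3 in untreated cells and at each time of BMP4 (red) and Activin+BMP4 (blue), with times evenly spaced; points are libraries and lines join group means. EFNA1 separates the conditions from 24 h, EPHA2 is highest at 48 h of Activin+BMP4 (154 CPM), and EFNB2 and EFNB1 are highest at 96 h of BMP4 (107 and 44.9 CPM).

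The secreted class 3 semaphorins included SEMA3C and SEMA3D, which were called in both directions at different times. Of the 7, at 24 h 0 were higher and 2 lower with BMP4, at 48 h 3 were higher and 0 lower, and at 96 h 1 was higher and 3 lower. Among all genes, 4.01% were called at 24 h, 9.25% at 48 h and 15.6% at 96 h, and with 7 members these counts describe single genes. SEMA3C, which guides cardiac neural crest cells in mice, was barely detected in untreated cells, at 0.643, 0.845 and 0.88 CPM. At 24 h it had 10, 9.32 and 8.87 CPM with BMP4 and 20.1, 20.5 and 19 CPM with Activin+BMP4, 2.11-fold lower with BMP4 (log2 -1.08 ± 0.11, adjusted p = 4.17e-10). By 48 h the order was reversed, at 28.7, 29.2 and 29.9 CPM with BMP4 and 3.66, 3.58 and 2.48 CPM with Activin+BMP4, 9.06-fold higher (log2 3.18 ± 0.13, adjusted p = 7.15e-24). SEMA3C kept that order at 96 h, at 36.2, 40.6 and 38.8 CPM with BMP4 and 3.74, 4.69 and 2.82 CPM with Activin+BMP4 (10.3-fold, log2 3.36 ± 0.12, adjusted p = 7.33e-26). In Activin+BMP4 cells SEMA3C therefore passed through a peak near 24 h and fell 6.15-fold from 24 h to 48 h (adjusted p = 9.77e-21), while in BMP4 cells it rose 3.12-fold over the same step (adjusted p = 8.33e-16).

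SEMA3E, a ligand of PLXND1, was first slightly higher and then far lower with BMP4. At 48 h it had 29, 30 and 30.7 CPM with BMP4 and 17.6, 17.6 and 18 CPM with Activin+BMP4, a difference under 2-fold. At 96 h it had 8.61, 10.2 and 10.3 CPM with BMP4 and 164, 180 and 163 CPM with Activin+BMP4. SEMA3E was thus 17.4-fold lower with BMP4 at 96 h (log2 -4.12 ± 0.08, adjusted p = 4.26e-35), and 5.94-fold lower at 72 h (log2 -2.57 ± 0.08, adjusted p = 3.72e-27). Against the 1.09 to 1.53 CPM of untreated libraries the level at 96 h was 7.51-fold up with BMP4 (log2 2.91 ± 0.14, adjusted p = 3.7e-22) and 130-fold up with Activin+BMP4 (log2 7.03 ± 0.11, adjusted p = 5.66e-39). Between 48 h and 96 h it fell 3.08-fold with BMP4 and rose 9.52-fold with Activin+BMP4.

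SEMA3D, a relative of SEMA3A that acts in heart and vessel development in mice, changed in opposite directions over the same step. At 48 h it had 44.3, 46.4 and 42.6 CPM with BMP4 and 5.78, 6.44 and 5.37 CPM with Activin+BMP4, 7.58-fold higher (log2 2.92 ± 0.12, adjusted p = 3.32e-23). SEMA3D at 96 h had 10.6, 10.6 and 10.5 CPM with BMP4 and 40.9, 48 and 25.7 CPM with Activin+BMP4, 3.61-fold lower (log2 -1.85 ± 0.11, adjusted p = 4.07e-18). From 48 h to 96 h SEMA3D fell 4.2-fold with BMP4 (adjusted p = 1.73e-19) and rose 6.52-fold with Activin+BMP4 (adjusted p = 2.02e-22), and the untreated level was 6.15 ± 0.0646 CPM. The call at 96 h held without Activin+BMP4 96 h replicate 3, the lowest of its group.

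SEMA3A, the classical repellent of growing axons, was lower with BMP4 at 12, 24 and 96 h. At 24 h it had 53, 57.1 and 54.9 CPM with BMP4 and 126, 114 and 124 CPM with Activin+BMP4, 2.21-fold lower with BMP4 (log2 -1.14 ± 0.07, adjusted p = 1.9e-17). At 48 h the libraries overlapped, with 66.8 ± 2.15 CPM and 67 ± 2.89 CPM in the same order. At 96 h the conditions were apart again, with 47.2, 47.3 and 50.8 CPM with BMP4 and 120, 131 and 93.9 CPM with Activin+BMP4, 2.37-fold lower (log2 -1.25 ± 0.07, adjusted p = 6.63e-20). Untreated cells had 60.7 to 64.2 CPM, and SEMA3A was called against untreated at no time of Activin+BMP4, where its largest excess was 1.96-fold at 12 h. SEMA3F, a ligand of NRP2, had 40.9, 42.1 and 44.7 CPM at 96 h of BMP4 and 49.9, 50.8 and 65.1 CPM at 96 h of Activin+BMP4, against 26.3, 26.8 and 26.7 CPM untreated. The rise with Activin+BMP4 (2.08-fold, log2 1.06 ± 0.07, adjusted p = 5.52e-17) lay just past 2-fold and was lost without replicate 3, while the level with BMP4 was 1.6-fold over untreated and was not called. SEMA3B was called higher with BMP4 at 48 h, at 5.28 ± 0.488 CPM against 2.52 ± 0.0818 CPM with Activin+BMP4, a call lost without BMP4 48 h replicate 2. SEMA3G stayed between 1.64 and 3.23 CPM.

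**Figure D4:**
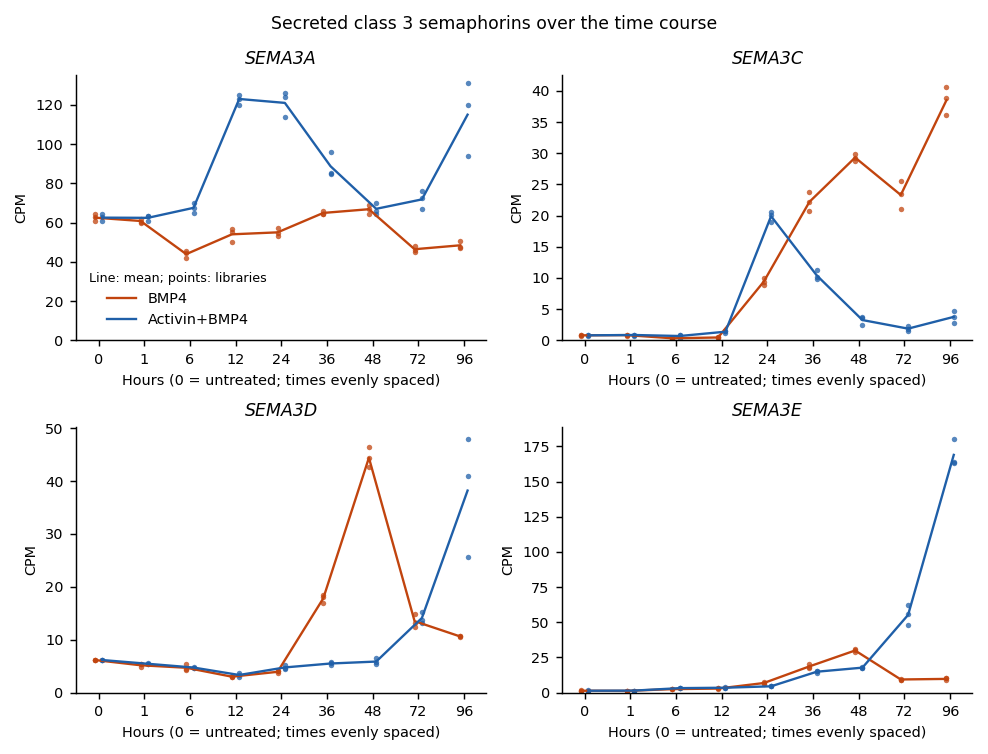
CPM of SEMA3A, SEMA3C, SEMA3D and SEMA3E in untreated cells and at each time of BMP4 (red) and Activin+BMP4 (blue), with times evenly spaced; points are libraries and lines join group means. The lines of SEMA3C and SEMA3D cross, and SEMA3E separates at 72 h and ends at 9.7 CPM (BMP4) and 169 CPM (Activin+BMP4).

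The membrane-bound semaphorins were led by SEMA6A and differed in classes 5 and 6 at different times. SEMA6A, which binds A plexins, had the highest level per kb of all 51 guidance genes at 96 h of BMP4 (48.4 CPM per kb), at 96 h of Activin+BMP4 (33.2 CPM per kb) and in untreated cells (43 CPM per kb). Its 24 comparisons gave 0 calls although its mean ran from 364 to 905 CPM, since the largest rise over untreated, 1.92-fold at 24 h of Activin+BMP4, was below 2-fold. SEMA6D, a ligand of PLXNA1 known from heart development in chick and mouse, had 18.2, 16.2 and 20.3 CPM with BMP4 at 24 h and 3.86, 4.46 and 3.34 CPM with Activin+BMP4. It was 4.68-fold higher with BMP4 at 24 h (log2 2.23 ± 0.12, adjusted p = 8.57e-19), when it had fallen 2.54-fold below untreated with Activin+BMP4 (adjusted p = 2.06e-11). At 96 h the libraries overlapped, at 62.1, 64.2 and 66.5 CPM with BMP4 and 83.4, 82.7 and 62.9 CPM with Activin+BMP4. Over the 9.77 to 10 CPM of untreated cells these were rises of 6.49-fold with BMP4 (log2 2.70 ± 0.09, adjusted p = 5.88e-27) and 7.7-fold with Activin+BMP4 (log2 2.95 ± 0.09, adjusted p = 1.8e-28).

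SEMA6C, another transmembrane semaphorin, had 14.3, 14.6 and 15.1 CPM at 96 h of BMP4 and 22.5, 20.8 and 25.1 CPM at 96 h of Activin+BMP4, against 8.84, 8.93 and 10.1 CPM untreated. The rise with Activin+BMP4 was called (2.46-fold, adjusted p = 5.03e-17), and the 1.58-fold difference with BMP4 was not. SEMA6B was never called, at 26.4 to 52.9 CPM, nor was SEMA7A, at 9.26 to 17.7 CPM.

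The class 5 semaphorins, which carry thrombospondin repeats outside the membrane, were SEMA5A and SEMA5B. SEMA5A rose late in both conditions and later with BMP4. At 48 h it had 23.9, 26.2 and 25.8 CPM with BMP4 and 65.7, 66.8 and 74.7 CPM with Activin+BMP4, 2.73-fold lower with BMP4 (log2 -1.45 ± 0.09, adjusted p = 5.17e-17). At 96 h it had 133, 125 and 114 CPM with BMP4 and 192, 215 and 208 CPM with Activin+BMP4, against 14.9, 14.1 and 16.2 CPM untreated, and the 1.65-fold gap between the conditions was no longer past 2-fold. The rises over untreated were 8.24-fold with BMP4 (log2 3.04 ± 0.10, adjusted p = 4.98e-28) and 13.6-fold with Activin+BMP4 (log2 3.77 ± 0.10, adjusted p = 2.32e-31).

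SEMA5B changed sides between 24 h and 96 h. It had 27.6, 28.8 and 28.3 CPM with BMP4 at 24 h and 12.3, 11.6 and 12 CPM with Activin+BMP4, 2.36-fold higher with BMP4 (log2 1.24 ± 0.11, adjusted p = 1.61e-12). By 96 h SEMA5B had 14.1, 13.2 and 14.6 CPM with BMP4 and 61.2, 49.6 and 43.5 CPM with Activin+BMP4, 3.68-fold lower (log2 -1.88 ± 0.10, adjusted p = 2.36e-20). Untreated libraries had 24.8 to 27.2 CPM. The rise of SEMA5B over untreated at 96 h of Activin+BMP4 was 2-fold (adjusted p = 1.06e-12), on the limit of a call, and several alternative settings lost it.

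Among the 6 class 4 semaphorins, SEMA4G and SEMA4A were called between the conditions. SEMA4G had 5.15, 5.69 and 6.29 CPM with BMP4 at 96 h and 22.7, 21.2 and 19.8 CPM with Activin+BMP4, 3.71-fold lower with BMP4 (log2 -1.89 ± 0.11, adjusted p = 9.81e-19). The untreated libraries had 4.65 to 4.71 CPM, so SEMA4G rose with Activin+BMP4 (4.54-fold, adjusted p = 1.25e-20) and was near its untreated level with BMP4. Exons of SEMA4G overlap those of MRPL43 and an antisense gene on the opposite strand over 27.4% of its exon bases, and whether counting used strand is not given in the sources used here, so this level is uncertain. SEMA4A, known from immune cells and the retina, had 7.03, 7.96 and 10.2 CPM with BMP4 at 24 h and 3.9, 4.17 and 3.61 CPM with Activin+BMP4. This 2.15-fold excess (log2 1.11 ± 0.14, adjusted p = 1.67e-08) was lost without BMP4 24 h replicate 3, while that at 48 h was 2.44-fold (adjusted p = 1.4e-10). At 96 h SEMA4A had 4.27, 5.62 and 4.95 CPM with BMP4 and 8.19, 7.33 and 8.11 CPM with Activin+BMP4, against 13.2, 13 and 12.1 CPM untreated, and only the fall with BMP4 was called (2.58-fold, log2 -1.37 ± 0.13, adjusted p = 7.61e-13). At earlier times SEMA4A was called lower than untreated with Activin+BMP4 alone, at 12, 24, 36, 48 and 72 h. The call at 72 h was lost without Activin+BMP4 72 h replicate 3. SEMA4F rose with Activin+BMP4 at 96 h (9.51 ± 1.48 CPM, against 4.41 CPM untreated), a call lost without replicate 3. SEMA4B, SEMA4C and SEMA4D were called nowhere, with group means of 26.1 to 48.7, 61.8 to 105 and 35.7 to 68.7 CPM.

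Of the plexins, PLXNA2 had the steepest rise. PLXNA2 is a receptor for SEMA6A and, with neuropilins, for class 3 semaphorins. It had 2.29, 2.9 and 2.31 CPM untreated, and its means were 6.15, 27.2, 199 and 185 CPM at 24, 48, 72 and 96 h of BMP4, and 4.96, 158, 277 and 252 CPM at the same times of Activin+BMP4. At 48 h it had 26.7, 27.6 and 27.4 CPM with BMP4 and 156, 151 and 169 CPM with Activin+BMP4, 5.82-fold lower with BMP4 (log2 -2.54 ± 0.10, adjusted p = 8.64e-24). By 96 h PLXNA2 had 197, 191 and 166 CPM with BMP4 and 272, 267 and 215 CPM with Activin+BMP4, no overlap but under 2-fold apart. The rise over untreated at 96 h was 73.7-fold with BMP4 (log2 6.20 ± 0.14, adjusted p = 5.04e-33) and 100-fold with Activin+BMP4 (log2 6.65 ± 0.14, adjusted p = 3.14e-34). PLXNA2 rose 6.78-fold from 48 h to 96 h of BMP4, and 31.9-fold from 24 h to 48 h of Activin+BMP4.

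PLXNA4, a plexin of sensory and sympathetic neurons, rose with Activin+BMP4 after 48 h, from 2.92 ± 0.131 CPM at that time. At 96 h it had 5.73, 5.12 and 4.13 CPM with BMP4 and 65.9, 63.8 and 43 CPM with Activin+BMP4, 11.6-fold lower with BMP4 (log2 -3.53 ± 0.16, adjusted p = 2.78e-22). In untreated libraries it had 3.42 to 3.78 CPM, and the rise over them with Activin+BMP4 was 16-fold (adjusted p = 9.09e-24). PLXND1, the receptor of SEMA3E that is abundant in vessel walls, moved the other way at 96 h, with 179, 175 and 144 CPM in BMP4 libraries and 68.6, 69 and 76.3 CPM in Activin+BMP4 libraries. It was 2.33-fold higher with BMP4 (log2 1.22 ± 0.06, adjusted p = 1.06e-21), although at 48 h it had 67.3, 70.5 and 71.5 CPM with BMP4 and 121, 115 and 115 CPM with Activin+BMP4. Untreated cells had 41.9, 42.6 and 44.1 CPM of PLXND1, and the rise at 96 h of BMP4 was 3.87-fold (log2 1.95 ± 0.06, adjusted p = 2.42e-28). The receptor PLXND1 and its ligand SEMA3E thus stood on opposite sides at 96 h. PLXND1 was 2.33-fold higher and SEMA3E 17.4-fold lower with BMP4.

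PLXNC1, the SEMA7A receptor, was called higher with BMP4 at 36 h and 48 h. At 48 h it had 8.64, 9.12 and 8.14 CPM with BMP4, against 4.01, 3.74 and 3.72 CPM with Activin+BMP4 (2.26-fold, adjusted p = 2.18e-10). PLXNB3 was called lower with BMP4 at 72 h and 96 h from group means below 1 CPM, and 20.4% of its exon bases are shared with SRPK3. PLXNA1, PLXNA3, PLXNB1 and PLXNB2 were called in 0 of 24 comparisons, at 99.5 to 160, 11.6 to 27.9, 74.3 to 174 and 72.1 to 119 CPM. NRP1, a co-receptor of A plexins for class 3 semaphorins, had 8.8, 10.2 and 8.56 CPM with BMP4 at 48 h and 24.2, 24.8 and 25.5 CPM with Activin+BMP4, lower with BMP4 (log2 -1.44 ± 0.12, adjusted p = 5.36e-13). At 96 h NRP1 was higher, at 114, 124 and 104 CPM with BMP4, against 55.6, 55.6 and 35 CPM with Activin+BMP4 (log2 1.23 ± 0.10, adjusted p = 4.77e-14). NRP2 did not differ by 2-fold there, at 158 ± 17.7 CPM and 155 ± 5.93 CPM in the same order, against 66.3 ± 1.33 CPM untreated.

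**Figure D5:**
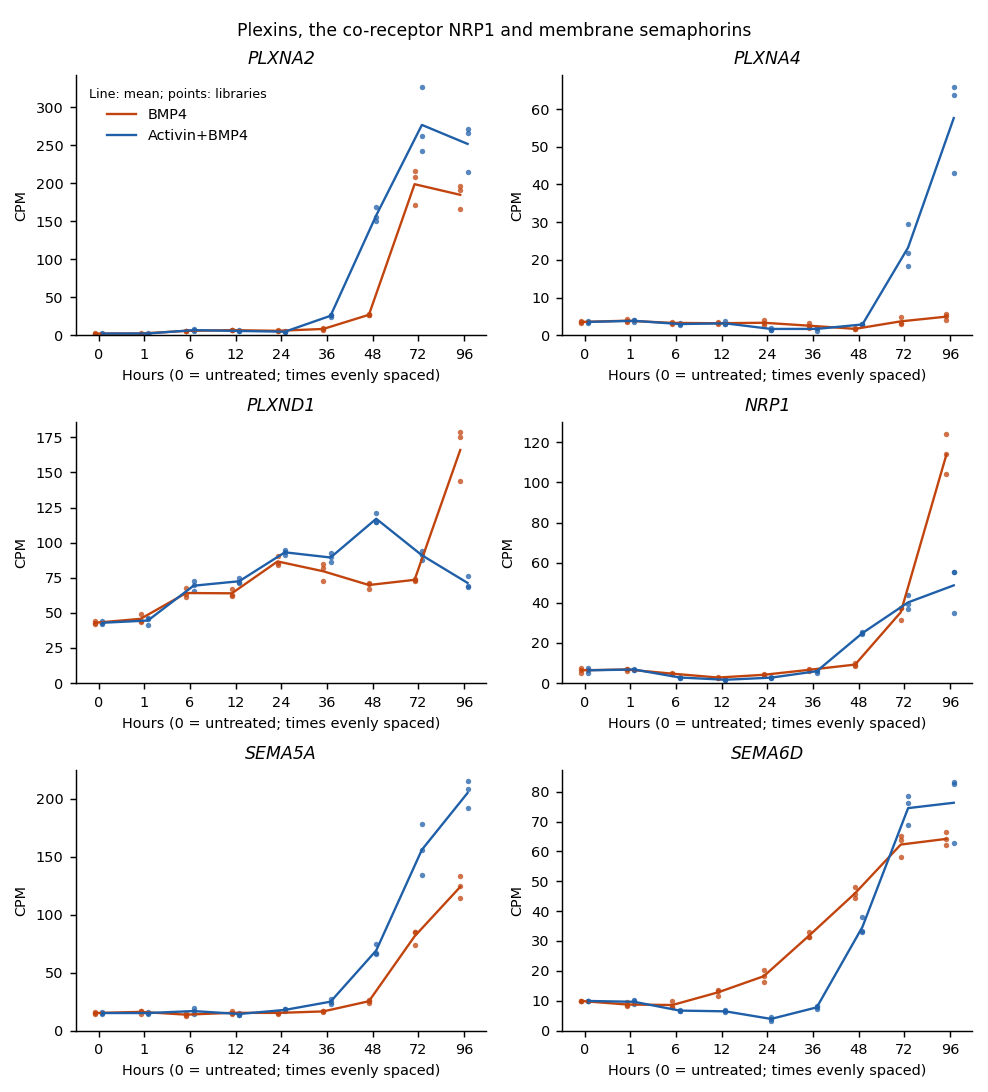
CPM of PLXNA2, PLXNA4, PLXND1, NRP1, SEMA5A and SEMA6D in untreated cells and at each time of BMP4 (red) and Activin+BMP4 (blue), with times evenly spaced; points are libraries and lines join group means. PLXNA2 and SEMA5A climb earlier with Activin+BMP4, PLXNA4 ends at 4.99 CPM (BMP4) and 57.6 CPM (Activin+BMP4), and PLXND1 and NRP1 end higher with BMP4, at 166 and 114 CPM.

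Against untreated cells more guidance genes rose than fell at 96 h of both conditions, which share the untreated libraries, whereas at 24 h of Activin+BMP4 slightly more fell. At 1 h 0 guidance genes were called in either condition with edgeR and with DESeq2, with 10 at an unadjusted edgeR p under 0.05 for BMP4 and 11 for Activin+BMP4, where 1.21% and 0.867% of all genes were called. At 24 h of BMP4, 7 rose and 2 fell (17.6% of guidance genes, against 7.21% of all genes, 4.92% rising and 2.29% falling), and at 24 h of Activin+BMP4, 5 rose and 6 fell (21.6%, against 8.08% of all genes, 4.38% rising and 3.7% falling). At 96 h of BMP4, 14 rose and 5 fell (37.3%, against 23.2% of all genes, 14.6% rising and 8.54% falling), and at 96 h of Activin+BMP4, 17 rose and 2 fell (37.3%, against 26.5% of all genes, 16.5% rising and 9.96% falling). At the other times of BMP4 the 6 h comparison called 4 guidance genes (4.99% of all genes), that of 12 h 6 (5.62%), that of 36 h 11 (8.41%), that of 48 h 16 (12.2%) and that of 72 h 13 (16.9%). At those of Activin+BMP4 the 6 h comparison called 4 (5.69%), that of 12 h 5 (6.82%), that of 36 h 15 (10.5%), that of 48 h 16 (15.8%) and that of 72 h 20 (21%). Within a condition, 10 guidance genes were called from 24 h to 48 h of BMP4 (5.7% of all genes) and 14 from 48 h to 96 h (12.8%), against 11 (8.54%) and 11 (16.5%) of Activin+BMP4. The difference between the conditions itself changed for 17 guidance genes from 24 h to 96 h (13.6% of all genes) and for 19 from 48 h to 96 h (15.7%). The median log2 change at 96 h was 0.35 with BMP4 and 0.44 with Activin+BMP4 over the guidance genes, and 0.04 in each over all genes. By family, EphB receptors had 3 of 5 rising with BMP4 and 2 of 5 with Activin+BMP4, B ephrins 2 of 3 and 0 of 3, and class 3 semaphorins 2 of 7 and 4 of 7. The class 3 semaphorins summed to 149 to 162 CPM at 96 h of BMP4 and 357 to 420 CPM at 96 h of Activin+BMP4, against 100 to 104 CPM untreated. EPHA3 and EPHA10 fell in both conditions, with untreated means of 1 and 0.665 CPM. Without replicate 3 of Activin+BMP4 at 96 h and replicate 1 of BMP4 at 12 h, 20 genes were called at 96 h of Activin+BMP4, 17 of them shared with the 19. The same setting called 7 genes at 12 h of BMP4.

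Some guidance genes were called in no comparison of single times, which does not mean that their levels were constant. In the 24 comparisons with untreated cells or between conditions, 15 guidance genes were never called. Their highest group mean was 1.23 to 2.93 times their lowest. The share of all genes never called was not computed, so this count has no background beside it. The 15 include the B plexins PLXNB1 and PLXNB2, PLXNA1, EPHB4 and SEMA6A. They also include SEMA6B and SEMA7A, which were called for a change over time in the difference between the conditions. SEMA6A and EPHB4 ranked first and second per kb of exon at 96 h of BMP4, at 96 h of Activin+BMP4 and in untreated cells. The third rank was EFNB2 (21.3 CPM per kb) with BMP4, EPHA2 (23.7 CPM per kb) with Activin+BMP4 and EPHA1 (23.4 CPM per kb) in untreated cells. EPHA2 with Activin+BMP4 lay close to EPHB4 there, at 24 CPM per kb. In untreated cells 26 guidance genes had at least 10 CPM and 5 had under 1 CPM.

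Genes that act with or beside these families were counted from lists of co-receptors, intracellular partners and other guidance systems. At 96 h 15.6% of all genes were called between the conditions, 7.62% higher and 7.95% lower with BMP4, and these lists are short, so their counts describe single genes. Of 18 semaphorin and plexin signalling genes, 2 were higher and 1 lower with BMP4 at 96 h, including MICAL2, an actin-oxidising enzyme, at 50.4 CPM against 3.09 CPM with Activin+BMP4 (log2 4.02 ± 0.16, adjusted p = 1.25e-24), and FARP1, at 174 CPM with BMP4 against 352 CPM with Activin+BMP4. Against untreated, CRMP1, DPYSL2, DPYSL3, DPYSL4, DPYSL5 and RND1 fell at 96 h of Activin+BMP4, whereas RND1 alone of the list fell at 96 h of BMP4. In those comparisons 9.96% of all genes fell at 96 h of Activin+BMP4 and 8.54% at 96 h of BMP4. Among 19 Eph and ephrin signalling genes 3 were higher (ANKS1A, CHN2 and KALRN) and 3 lower (ANKS1B, ARHGEF15 and ARHGEF16) with BMP4 at 96 h. Of the 15 genes listed for netrins and repulsive guidance molecules, another guidance system, 13 were tested, of which DCC, UNC5B and UNC5C were higher and NTN1, NTN4 and RGMB lower with BMP4 at 96 h. UNC5C, a netrin receptor, had 158, 181 and 155 CPM with BMP4 at 96 h and 5.56, 5.96 and 2.19 CPM with Activin+BMP4 (log2 5.17 ± 0.16, adjusted p = 3.69e-28). The ligand NTN1 had 8.91, 6.67 and 7.17 CPM with BMP4 and 96.6, 95.7 and 77.1 CPM with Activin+BMP4 (log2 -3.57 ± 0.11, adjusted p = 9.44e-29). Of 6 tested slits and robos, ROBO2 and SLIT3 were higher with BMP4 at 96 h, SLIT3 at 52.8 CPM against 5.44 CPM with Activin+BMP4. Neural and neural crest markers summed to 702 to 853 CPM at 96 h of BMP4 and 354 to 486 CPM at 96 h of Activin+BMP4, of which NES made 690 and 247 CPM, and their part in these counts was not tested.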

How the data were processed

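Total RNA of 51 H1 libraries was sequenced. The authors deposited 1 table of gene counts as whole numbers, which may be rounded estimates. Per the submitters' processing notes, cutadapt 1.5, STAR 2.5.2a, RSEM 1.3.0 and GRCh38 were used. The annotation release, strand setting and filters are not given in the sources used here. Libraries were grouped by their labels.

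The counts were scaled by TMM factors (0.966 to 1.03), and filterByExpr, run with the 17 groups, a minimum count of 10 and a minimum total of 15, kept 19603 genes with 99.95% of counts. One edgeR 4.0.16 quasi-likelihood model of all libraries (R 4.3.3, limma 3.58.1) gave 30 comparisons, with Benjamini-Hochberg adjustment over all genes tested. DESeq2 1.42.0 and other settings were alternatives. CPM uses the scaled totals, and per-kb levels use merged exons of GENCODE 29. On simulated counts for BMP4 against Activin+BMP4 at 96 h (19603 genes), 67 of 67 genes changed 3-fold and 0 of 67 changed 1.5-fold were called, as were 2 of 19403 unchanged genes. A 1.5-fold change lies under the 2-fold limit. The simulation gave every gene the same dispersion (0.0035), held no library that stood apart and changed no low genes. It checks that the code runs as meant, and its rates need not hold for the real counts.

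Genes were described in full where they were called between the conditions at 24, 48 or 96 h, or against untreated at 96 h and reached 10 CPM in either group compared. The genes and lists were chosen with earlier results of these data known. Totals of 22.8 to 30.4 M counts set the precision of low genes. Promoters came from RefSeq; EFNB3, EPHA10, SEMA3A, SEMA6A and SEMA6B had no entry.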

Additional observations from a re-analysis of the deposited data

Results flagged for a closer look

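The difference between BMP4 and Activin+BMP4 itself changed with time in many guidance genes, by an interaction term in the edgeR model (adjusted p under 0.05 and at least 2-fold). Values are changes in the log2 ratio of BMP4 over Activin+BMP4, so a positive value means that BMP4 gained relative to Activin+BMP4. From 24 h to 96 h, 17 genes were called (13.6% of all genes). BMP4 gained for SEMA3C (4.44), EPHA5 (3.61), EFNB2 (2.51), EPHA7 (2.08), EFNA1 (1.70) and PLXND1 (1.32). It lost for SEMA3E (-4.72), PLXNA4 (-4.49), SEMA5B (-3.12), SEMA6D (-2.47), SEMA4G (-1.88), EPHB3 (-1.87), SEMA4A (-1.78), PLXNB3 (-1.60), SEMA3D (-1.57), EPHA8 (-1.38) and SEMA6B (-1.35). The highest group means of EPHA5, EPHA8 and PLXNB3 were 0.572, 2.34 and 1.25 CPM, so their values rest on low levels.

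From 48 h to 96 h, 19 genes were called (15.7% of all genes). BMP4 gained for PLXNA2 (2.09), PLXND1 (1.96), EFNB2 (1.95), EPHA7 (1.92), EFNB1 (1.68), EPHA4 (1.57), EPHA2 (1.09) and SEMA7A (1.01). It lost for SEMA3E (-4.87), SEMA3D (-4.77), PLXNA4 (-2.80), SEMA5B (-2.70), SEMA4A (-1.96), EPHA8 (-1.61), EPHB1 (-1.30), SEMA3B (-1.29), SEMA6B (-1.27), SEMA3A (-1.24) and SEMA4G (-1.16). SEMA6B and SEMA7A were called in no comparison of single times. Both sets use the 96 h libraries. Without the libraries that stood apart, 16 genes were called from 24 h, EPHA8 being lost, and 18 from 48 h, EPHA2 being lost.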

How the results depend on the processing

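Counts of called guidance genes stayed within 1.5 times under every alternative run except at 6 h between the conditions, where 1 call became 0 with only the groups compared, and no call reversed. Leaving out each library of the untreated, 24, 48, 72 and 96 h groups in turn gave 8 to 10 calls between the conditions at 24 h, 13 at 48 h, 9 to 12 at 72 h and 16 to 17 at 96 h. Against untreated at 96 h it gave 18 to 19 calls with BMP4 and 18 to 21 with Activin+BMP4. Libraries of the other times were not left out in turn. Of 313 called pairs of gene and comparison, 33 lost the call in some setting that gave the gene an adjusted p. Beside those given with their genes, these include EPHB6 at 72 h (without replicate 1 of either condition), SEMA3B at 72 h (without any of 3 libraries) and EPHA10 at 96 h of BMP4 (without its replicate 3). They also include the changes from 48 h to 96 h of SEMA7A (in 4 settings, among them no scaling factors) and of EPHA2 (also without BMP4 96 h replicate 1). The stricter filter left EPHA3, EPHA5, EPHA10 and PLXNB3 untested, with 15 calls between the conditions at 96 h. Calls that these genes lost in this way are not counted in the 33. Same-numbered libraries did not in general deviate together (median correlation -0.0054, 0 of 136 group pairs with all correlations over 0.1), so the main model used no pairing. This check cannot exclude a batch shared by some of the libraries. With the replicate number as a block, 17 genes were called between the conditions at 96 h and 18 against untreated at 96 h of Activin+BMP4, SEMA5B being lost. Calls of genes under 1 CPM rest on few counts.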
